A study of Mus musculus with 6 samples.

Results

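The 36 genes described here encode receptors, enzymes and regulators of mononuclear phagocytes (monocytes, macrophages and dendritic cells) and of mast cells. They were named by a fixed list of gene symbols, and all 36 were found among the 55487 gene identifiers of the series. RNA was measured in 6 libraries of terminal ileum, the last stretch of small intestine, from C57BL/6 mice on postnatal day 9, in 3 control libraries and 3 of NEC. That name is short for necrotizing enterocolitis, in which the bowel of preterm infants becomes inflamed and dies, and the series was made to study autophagy genes in this disease. The treatment label lists gavage with hyperosmolar formula, spells of 10 min in 5% O2 given 3 times a day over 4 days, and lipopolysaccharide by mouth at 4 mg/kg/day on days 6 and 7 of life. The control labels carry the same text, so how the controls were fed and handled is not stated. No genotype or transgene is named for either group, and the labels do not say whether a library came from 1 animal or from several. All p-values below are thus set against the variation among libraries, which could be technical in part.

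Macrophages of the gut wall take up dead cells and microbes and are replaced after birth, in part, by monocytes from blood. They depend on signalling through the receptor encoded by Csf1r, while conventional dendritic cells depend on Flt3 and carry antigen to T cells. Mast cells store proteases in granules, which they release when IgE on their surface is cross-linked or when other receptors are engaged.

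Levels are given as FPKM, that is, fragments per kilobase of transcript and per M mapped fragments. The estimated depth was 15.2 M to 18.7 M fragments per library. Epithelium markers summed to 1089 to 1714 FPKM per library, and the pan-leukocyte gene Ptprc was between 0.642 and 2.32 FPKM. The ileal genes Fabp6 and Slc10a2 were low, at 0 to 10.4 and 1.01 to 2.30 FPKM, and Gata4, a regulator of the upper bowel, was at 3.74 to 7.96 FPKM in NEC against 0.0622 to 0.184 in control. Whether the pieces of both groups came from the same position along the bowel was not tested. Libraries did not all resemble their group. NEC 1 had 186 FPKM of summed fibroblast and muscle markers, against 730 and 737 in NEC 2 and 3 and 952 to 1116 in the controls. Xist, which marks female tissue, was at 130 and 139 FPKM in NEC 2 and 3 and at most 0.221 elsewhere, so sex and group cannot be told apart for these libraries. Control 1 had 7.57 FPKM of summed neutrophil markers, against 59.6 to 66.8 in the other 5 libraries.

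Most of the 36 genes were weakly expressed, and as a set they moved little against the rest of the transcriptome. A mean of at least 1 FPKM over the 6 libraries, needed for the test, was reached by 17 genes. Of these, 4 fell in NEC: Adgre1, Laptm5, C1qa and C1qb. None rose, and 13 did not pass the limma test at a Benjamini-Hochberg adjusted p of 0.05 over all 15806 tested genes. The share that fell was 23.5%, where 38.2% of all tested genes were called, 30.6% lower and 7.69% higher. The median log2 change of the 17 was -0.30, against -0.26 over all tested genes. NEC lay wholly below control in 9 of the 17 and wholly above in 1, where these shares over all tested genes were 47.3% and 11.8%. In bulk tissue, fewer cells of a type and less RNA per cell cannot be told apart.

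The calls depended in part on the scale. TMM scaling, which brings the middle of all changes near 0, gave 1 of the 17 lower (Adgre1) and 3 higher (Csf1r, Mertk and Plac8), where 30.9% of all genes were called, 14.2% lower and 16.7% higher. Quantile normalization called none of the 17 in either direction, where 29.0% of all genes were called, 15.1% lower and 13.9% higher. The medians of the 17 were then -0.030 and -0.0043, with 0.00 over all genes under both. Leaving out control 1 or control 2 left none of the 17 lower, with 1049 and 917 of all genes still called lower.

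**Figure D1:**
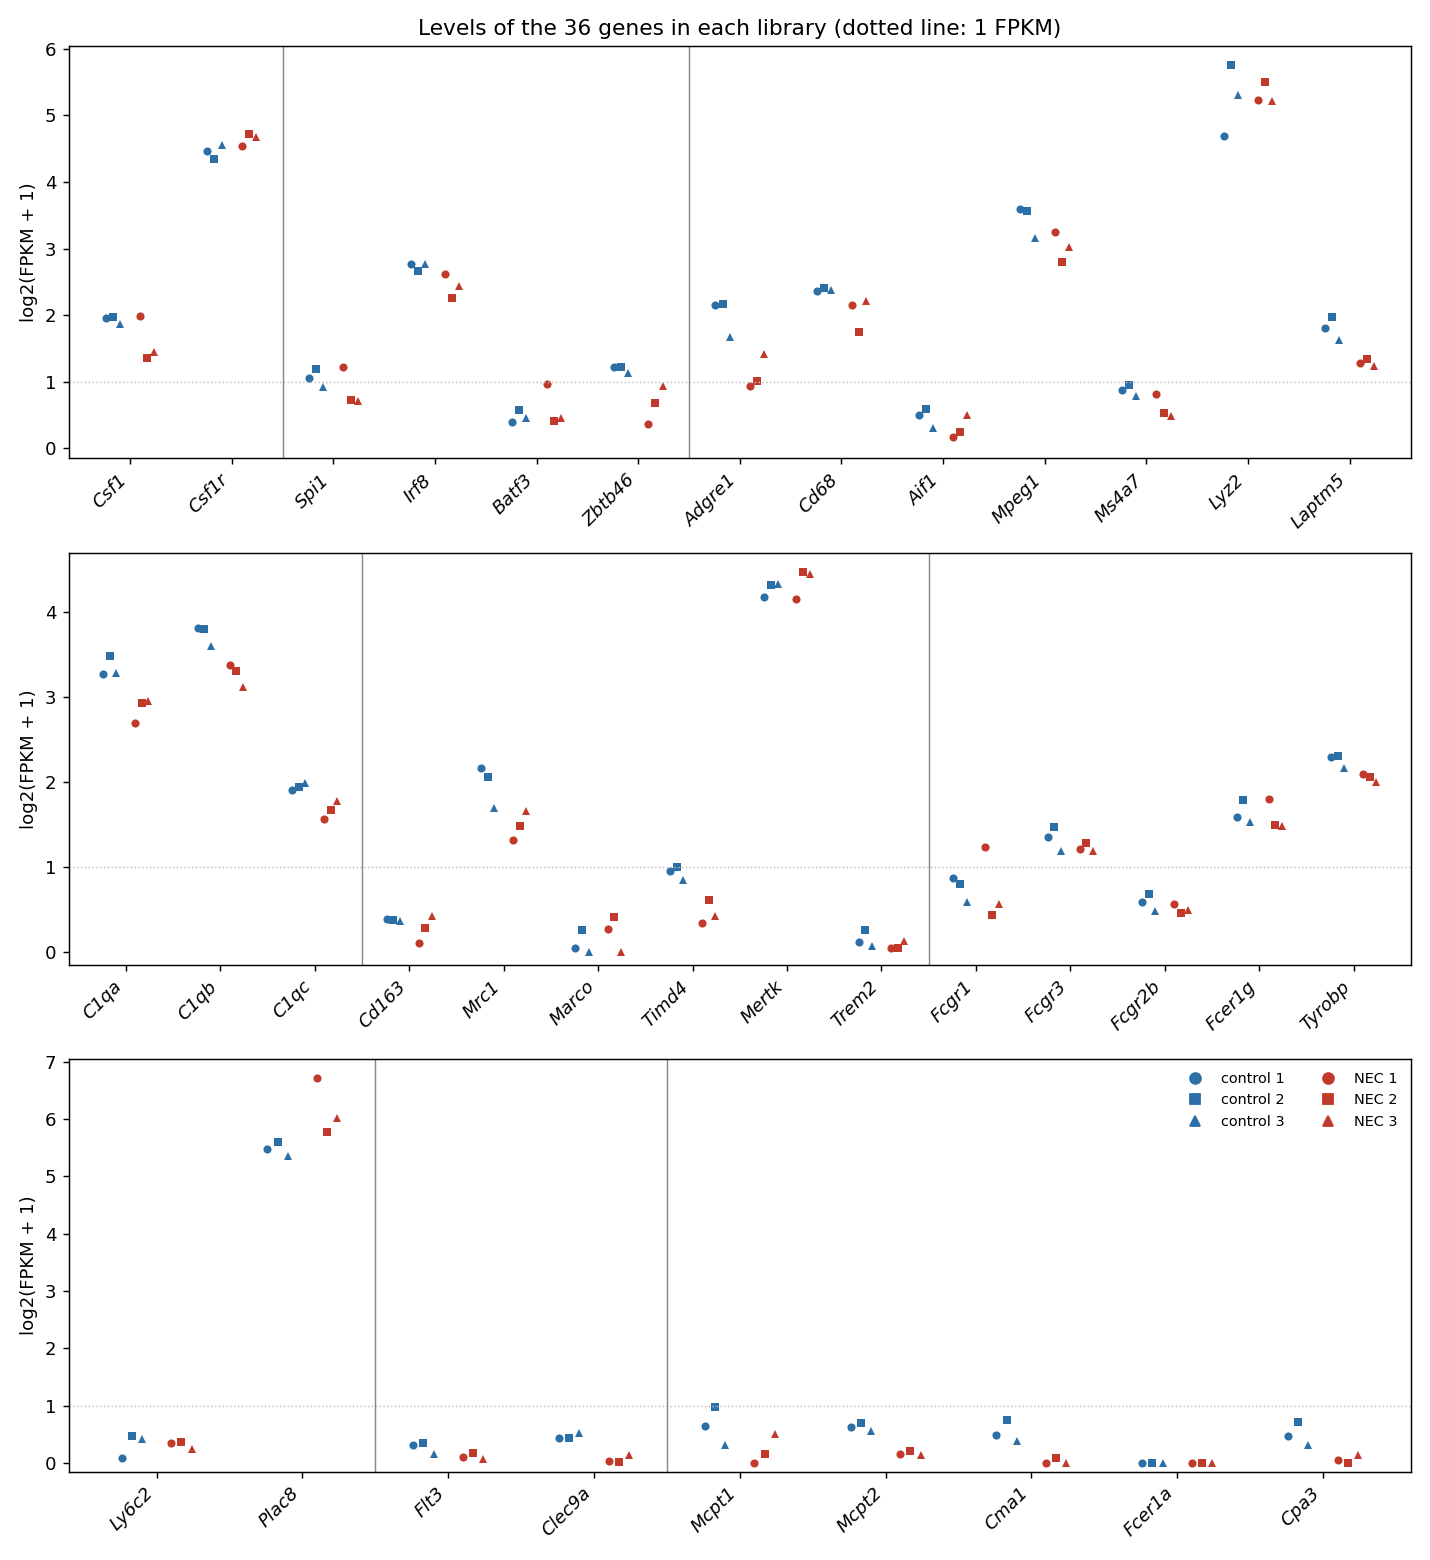
Level of each of the 36 genes as log2(FPKM + 1) in the 6 libraries, ordered by role with vertical lines between roles; blue symbols are control and red symbols NEC. Plac8, Lyz2, Csf1r and Mertk stand above the other 32 genes, and the dendritic receptors and mast cell genes lie under 1 FPKM in each library.

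The growth factor gene Csf1 and its receptor gene were described first, since their products maintain macrophages. Csf1r was at 22.3, 25.3 and 24.6 FPKM in NEC 1, 2 and 3 and at 21.001, 19.4 and 22.4 FPKM in control 1, 2 and 3. The groups overlapped only where NEC 1 fell just under control 3. The log2 change was 0.19 (SE 0.10, limma adjusted p = 0.153), and 0.52 with TMM scaling (adjusted p = 0.0102; range over all alternatives 0.0102 to 0.409). The ratio of Csf1r to Adgre1, a macrophage gene described below, was 24.2, 24.7 and 14.7 in NEC and 6.13, 5.53 and 10.2 in control. The cells that Csf1r RNA came from were not tested. Of the 5774 exon bases of Csf1r, 873 are shared with Hmgxb3 on the opposite strand, at 4.67 to 6.11 FPKM, and the strand setting of the counting is not given in the sources used here.

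Csf1 (chromosome 3, 107741048 to 107760469) was at 2.96, 1.57 and 1.72 FPKM in NEC and at 2.90, 2.94 and 2.65 FPKM in control. NEC 1 was at the level of the controls, and NEC 2 and 3 were below all of them. The log2 change was -0.34 (SE 0.18, limma adjusted p = 0.172). Without NEC 1 it was -0.53 (adjusted p = 0.00811), and over all alternatives the adjusted p ran from 0.00811 to 0.990. The fit without NEC 1 sets only NEC libraries with high Xist against controls with low Xist, so it cannot separate sex from group. This limit holds for every result given below without NEC 1. NEC 1 also had the highest NEC value of Irf8, Mpeg1 and Plac8, described below. Over the whole list, NEC 1 was the highest of the NEC libraries in 12 genes and the lowest or joint lowest in 12.

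Among the lineage regulators, Irf8, a transcription factor of monocytes and dendritic cells (chromosome 8, 120736358 to 120756694), was the most abundant. Its levels were 5.17, 3.79 and 4.39 FPKM in NEC and 5.84, 5.35 and 5.80 FPKM in control. All NEC values lay below all control values, and the log2 change was -0.30 (SE 0.12, limma adjusted p = 0.0920). Without NEC 1 the change was -0.39 (adjusted p = 0.0186), and with TMM scaling it was -0.0058 (0.981, the highest over all alternatives).

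Spi1, which encodes the myeloid regulator PU.1, fell just short of the level needed for the test, with a mean of 0.983 FPKM. It was at 1.34, 0.650 and 0.632 FPKM in NEC and 1.08, 1.29 and 0.896 in control, with NEC 1 above every control. Batf3, needed for cross-presenting dendritic cells, was at 0.962 FPKM in NEC 1, and at 0.321 to 0.494 FPKM in the other 5 libraries. Zbtb46, a factor that marks conventional dendritic cells, also missed the filter, with a mean of 0.947 FPKM. Its values were 0.283, 0.596 and 0.922 FPKM in NEC and 1.34, 1.34 and 1.20 FPKM in control, without overlap, and here NEC 1 was the lowest.

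The general macrophage genes held 2 of the 4 falls. Adgre1, the gene of the adhesion receptor used as the classical surface marker of mouse macrophages (chromosome 17, 57358691 to 57483527), was at 0.921, 1.02 and 1.67 FPKM in NEC and 3.43, 3.50 and 2.19 FPKM in control. The groups did not overlap, and control 3 stood nearest to NEC. The log2 change was -0.87 (SE 0.19, limma adjusted p = 0.0183). It was -0.65 with TMM scaling (adjusted p = 0.0340) and -0.51 with quantile normalization (0.0593). The call was also lost without NEC 2, control 1 or control 2, and the adjusted p over all alternatives ran from 0.0132 to 0.0725.

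Laptm5, a lysosomal membrane protein of blood-derived cells (chromosome 4, 130913125 to 130936141), was at 1.42, 1.54 and 1.36 FPKM in NEC and 2.50, 2.91 and 2.10 FPKM in control. NEC values were close together and lay below the controls. The log2 change was -0.52 (SE 0.12, limma adjusted p = 0.0215), and it was -0.29 with TMM scaling and -0.16 with quantile normalization, passing in neither. The call was lost as well without control 1 or control 2, with an adjusted p of 0.0247 to 0.359 over all alternatives.

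Mpeg1, a pore-forming protein of phagosomes (chromosome 19, 12460779 to 12465283), was at 8.53, 5.98 and 7.12 FPKM in NEC and 11.1, 10.8 and 7.89 in control. NEC 1 was above control 3. Its log2 change was -0.41 (SE 0.17, limma adjusted p = 0.0950), and -0.52 without NEC 1 (adjusted p = 0.0462, the lowest of alternatives that reached 0.722). Cd68, a glycoprotein of late endosomes, was at 3.43, 2.37 and 3.66 FPKM in NEC and 4.15, 4.29 and 4.18 in control, without overlap (log2 -0.34, limma adjusted p = 0.0990). The actin-binding gene Aif1 and the membrane protein gene Ms4a7 stayed under 1 FPKM, with means of 0.245 and 0.532 in NEC and 0.388 and 0.828 in control, and their groups overlapped.

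Lyz2, the lysozyme of macrophages and neutrophils (chromosome 10, 117277331 to 117282321), was at 36.7, 44.2 and 36.2 FPKM in NEC and 24.8, 53.3 and 38.7 FPKM in control. The controls spread beyond the NEC libraries on both sides, and the log2 change was 0.06 (SE 0.26, limma adjusted p = 0.859). The lowest value was in control 1, the library with few neutrophil marker reads: S100a8 was at 1.69 FPKM there and at 23.1 to 27.4 in the other 5, and Camp at 0.422 and at 8.13 to 9.15. Without control 1 the Lyz2 change was -0.22. The part of neutrophils in the Lyz2 level was not tested. Its near copy Lyz1, at 1.07 to 3.65 FPKM, could share some of its fragments.

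The C1q genes lie side by side on chromosome 4, encode the chains of the complement protein C1q, and are made mainly by macrophages. NEC was below control without overlap for each of the 3. C1qa (136895917 to 136898803) was at 5.45, 6.62 and 6.75 FPKM in NEC and 8.62, 10.1 and 8.72 in control, and fell by 0.48 on the log2 scale (SE 0.12, limma adjusted p = 0.0220). C1qb (136880129 to 136886187) was at 9.34, 8.86 and 7.68 FPKM in NEC and 13.1, 12.9 and 11.1 in control, and fell by 0.47 (SE 0.11, adjusted p = 0.0210). C1qc (136889804 to 136893065) was at 1.95, 2.18 and 2.42 FPKM in NEC and 2.74, 2.84 and 2.96 in control, a log2 change of -0.28 that did not pass (SE 0.10, adjusted p = 0.0769).

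The first 2 of these genes have a single annotated transcript, so whole fragments could be recovered. C1qa had 96, 125 and 131 fragments in NEC and 140, 160 and 147 in control. Corrected for depth, the NEC to control ratio was 0.689 for C1qa (95% exact interval 0.598 to 0.795) and 0.697 for C1qb (0.619 to 0.785), where the intervals cover counting error only. Both calls depended on the scale: with TMM scaling the changes were -0.18 and -0.16, and with quantile normalization -0.28 and -0.35, passing in neither. The C1qa call was lost without any 1 control, and the C1qb call without NEC 2, control 1 or control 2. The adjusted p ranged from 0.0182 to 0.154 for C1qa and from 0.0124 to 0.427 for C1qb over all alternatives. The C1qc change was 0.07 with quantile normalization.

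Since NEC lay below control in each of these neighbouring genes on the deposited scale, the bases before the starts of C1qb and C1qc are shown, from RefSeq on build GRCm38.p6, minus strand, read 5′ to 3′. They are at chr4:136886201-136886450 and chr4:136893066-136893164, and bases inside the GENCODE gene were left out. Capitals mark AGGAAGT on either strand, a core motif of ETS-family factors, of which PU.1 is a member. The match begins 53 bases before the RefSeq start of C1qb and 195 bases before that of C1qc.
C1qb: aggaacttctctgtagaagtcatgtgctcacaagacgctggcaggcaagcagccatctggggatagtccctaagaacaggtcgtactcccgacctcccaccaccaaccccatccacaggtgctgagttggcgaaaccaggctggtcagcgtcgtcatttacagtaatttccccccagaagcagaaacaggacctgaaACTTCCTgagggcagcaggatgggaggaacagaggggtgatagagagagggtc
C1qc: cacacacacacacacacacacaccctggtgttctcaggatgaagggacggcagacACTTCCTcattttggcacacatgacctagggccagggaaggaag
Within 250 bases before the start, the motif was present in 7.69% of all 32851 RefSeq promoters. It was present in 7 of 35 promoters of 30 matched genes of the list, those of C1qb, C1qc, Fcgr1, Ly6c2, Lyz2 and Mrc1. A match is a run of letters and does not show binding.

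**Figure D2:**
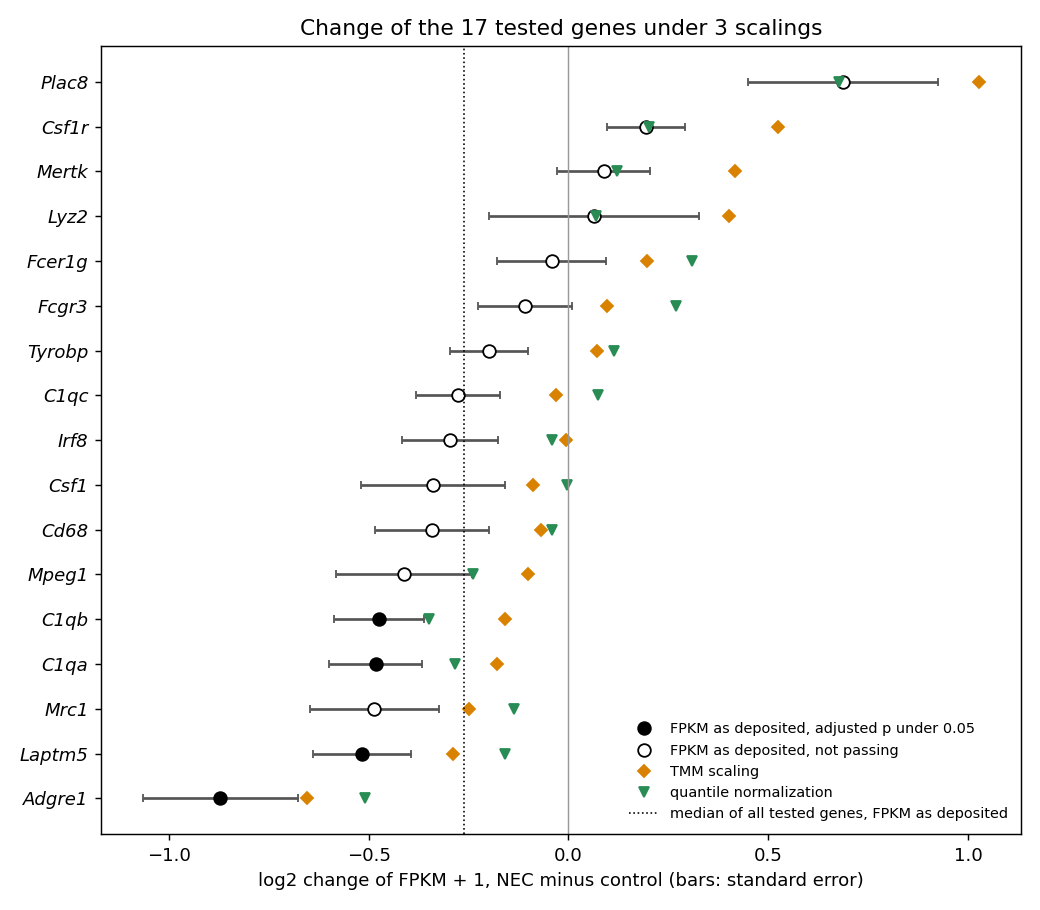
Log2 change of FPKM + 1 (NEC minus control) of the 17 tested genes on the deposited scale (circles, bars are SE; filled circles pass an adjusted p of 0.05) and under TMM scaling and quantile normalization. The 4 filled circles lie left of the median of all tested genes, -0.26, and both scalings shift most genes to the right.

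Among the receptors that clear dead cells and microbes, 2 were high enough for the test and neither passed. Mertk, a kinase receptor for dying cells (chromosome 2, 128698956 to 128802894), was at 16.8, 21.2 and 20.8 FPKM in NEC and 17.1, 18.8 and 19.0 in control, with overlap. Its log2 change was 0.09 (SE 0.12, limma adjusted p = 0.563), and 0.42 with TMM scaling (adjusted p = 0.0148, range over all alternatives 0.0148 to 0.865). The ratio of Mertk to Adgre1 was 18.2, 20.7 and 12.4 in NEC and 4.98, 5.37 and 8.68 in control. The cells that Mertk RNA came from were not tested. Mrc1, the mannose receptor (chromosome 2, 14229392 to 14332057), was at 1.5004, 1.78 and 2.16 FPKM in NEC and 3.48, 3.15 and 2.25 in control. Its groups did not overlap, but control 3 was close to NEC 3, and the log2 change of -0.49 (SE 0.16) missed the threshold (limma adjusted p = 0.0527). It passed without NEC 3 or without control 3, at an adjusted p of 0.0454 and 0.0484, and reached 0.460 with quantile normalization.

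Timd4, a phosphatidylserine receptor of long-lived resident macrophages (chromosome 11, 46810800 to 46844332), was too low for the test. It had 10, 21 and 14 fragments in NEC and 32, 33 and 28 in control, or 0.272, 0.532 and 0.345 against 0.943, 0.998 and 0.795 FPKM. The groups were well separated, with a depth-corrected NEC to control ratio of 0.424 (95% exact interval 0.290 to 0.611, counting error only). The hemoglobin scavenger receptor gene Cd163 was at 0.0765, 0.214 and 0.347 FPKM in NEC and 0.293 to 0.313 in control. Marco, a bacterial scavenger receptor, and Trem2, a lipid receptor, were at 0 to 0.328 and 0.0360 to 0.193 FPKM over the 6 libraries, and the groups of these last 3 genes overlapped.

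The 4 genes above 15 FPKM, a level chosen after the values were seen, were Csf1r, Lyz2, Mertk and Plac8, and all had positive log2 changes. The other 13 tested genes, with means up to 10.5 FPKM, all had negative ones, with a median of -0.34. Over all tested genes the median was also lower at low levels, -0.03 at 15 FPKM or more and -0.29 below it. Of the 13364 tested genes below 15 FPKM, 77.1% had negative changes.

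Fc receptors bind antibody and signal through adaptor chains. Of 5 such genes 3 were tested and none of these passed, and Fcgr1 and Fcgr2b were too low for the test. Tyrobp, the adaptor that couples Trem2 and other receptors to kinases (chromosome 7, 30413760 to 30417585), was at 3.27, 3.18 and 3.01 FPKM in NEC and 3.89, 3.94 and 3.46 in control. The groups did not overlap, and the log2 change of -0.20 did not pass (SE 0.10, limma adjusted p = 0.148). Fcer1g, the signalling chain shared by several Fc receptors (chromosome 1, 171229572 to 171234365), was at 2.47, 1.82 and 1.80 FPKM in NEC and 1.99, 2.46 and 1.88 in control. These groups overlapped fully, with a log2 change of -0.04 (SE 0.14, adjusted p = 0.825).

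Fcgr3, an activating IgG receptor, was at 1.31, 1.42 and 1.29 FPKM in NEC and 1.55, 1.77 and 1.27 in control (log2 -0.11, SE 0.12, limma adjusted p = 0.484). Its inhibitory counterpart Fcgr2b was at 0.373 to 0.479 FPKM in NEC and 0.402 to 0.611 in control. Fcgr1, the high-affinity IgG receptor, was at 1.36 FPKM in NEC 1 and at 0.358 and 0.477 in NEC 2 and 3, on either side of the 0.507 to 0.833 of the controls. The signs of Tyrobp, Fcer1g and Fcgr3 turned positive with TMM scaling and with quantile normalization, at 0.07 to 0.31, without passing. Fcgr3 and Fcgr2b are near copies in their outer parts, and the split of fragments between them is uncertain.

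Of the monocyte genes, Plac8 had the highest level of the 36 (chromosome 5, 100553725 to 100572245). It encodes a small cysteine-rich protein of myeloid cells and is also made by gut epithelium. It was at 103 FPKM in NEC 1, 53.4 in NEC 2 and 64.0 in NEC 3, and at 43.4, 47.6 and 39.998 in control. It was the single tested gene of the list with NEC wholly above control. The log2 change was 0.69 (SE 0.24) and missed the threshold (limma adjusted p = 0.0585). It passed with TMM scaling (1.03, adjusted p = 0.0440) and without NEC 1 (0.42, 0.0319) or NEC 2 (0.89, 0.0424), and its adjusted p reached 0.154. The summed level of 7 epithelium markers was 1269 to 1714 FPKM in NEC and 1089 to 1176 in control, highest in NEC 1, with 2 called higher (Krt20 and Vil1), none lower and 5 not passing, where 7.69% of all tested genes were called higher. None of the 7 was at 0, and their part in the Plac8 level was not tested. Ly6c2, a surface marker of inflammatory monocytes, was at 0.184 to 0.290 FPKM in NEC and 0.0587 to 0.392 in control, and its near copy Ly6c1 was at 1.75 to 2.27 FPKM.

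The dendritic cell receptor genes and mast cell genes of the list were all under the level of the test. NEC lay wholly below control in 4 of these 7 (Clec9a, Mcpt2, Cma1 and Cpa3). Fcer1a, listed at 0 in every library, could not lie below. Of all genes of 0.1 to 1 FPKM, a range that leaves Fcer1a out, 41.7% lay wholly below. Clec9a, a receptor for dead-cell actin on cross-presenting dendritic cells (chromosome 6), was at 0.0292, 0.0136 and 0.106 FPKM in NEC and 0.348, 0.357 and 0.442 in control. The groups were far apart, although these levels stand for few fragments. Flt3, the growth factor receptor of dendritic cell precursors, was at 0.0765, 0.125 and 0.0434 FPKM in NEC and 0.249, 0.277 and 0.110 in control, and NEC 2 was above control 3. Clec9a shares 184 of its 3293 exon bases with Clec1b, which was at most 0.0374 FPKM in any library.

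Mcpt2, a protease of mucosal mast cells (chromosome 14, 56042041 to 56044642), had 2, 3 and 2 fragments in NEC and 9, 10 and 8 in control. That is 0.111, 0.156 and 0.101 against 0.543, 0.619 and 0.465 FPKM, with a depth-corrected NEC to control ratio of 0.227 (95% exact interval 0.0834 to 0.534, counting error only). Mcpt1, a second mucosal mast cell protease, had 0, 2 and 8 fragments in NEC and 9, 15 and 4 in control. Here NEC 3 was above control 3, so the groups overlapped, and the ratio was 0.313 (0.136 to 0.663).

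Cma1, the chymase of connective tissue mast cells, was listed at 0, 0.0679 and 0 FPKM in NEC and at 0.395, 0.689 and 0.304 in control. Cpa3, the granule carboxypeptidase, was at 0.0389, 0 and 0.106 FPKM in NEC and 0.380, 0.650 and 0.244 in control, again without overlap. Fcer1a, the IgE-binding chain of the mast cell receptor, was listed at 0 in all 6 libraries. Summed over the 5 mast cell genes, the levels were 0.150, 0.332 and 0.630 FPKM in NEC and 1.89, 2.93 and 1.26 in control. The proteases Mcpt1 and Mcpt2 are near copies, so the split between them is uncertain.

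The region before Cpa3, as an example of a mast cell granule gene of the list, is shown from RefSeq (GRCm38.p6, chr3:20242182-20242431, minus strand, 5′ to 3′). Capitals mark AGATAA on either strand, a motif of GATA factors, which begins 46 bases before the start.
Cpa3: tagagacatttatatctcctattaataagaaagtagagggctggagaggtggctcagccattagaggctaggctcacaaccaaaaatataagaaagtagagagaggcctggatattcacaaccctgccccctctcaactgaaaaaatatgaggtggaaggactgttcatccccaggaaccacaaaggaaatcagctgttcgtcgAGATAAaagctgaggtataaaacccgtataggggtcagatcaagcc
The motif was in 9.99% of all promoters and in 3 of the 35 promoters of the list, those of Cpa3, Fcer1a and Mpeg1.

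**Figure D3:**
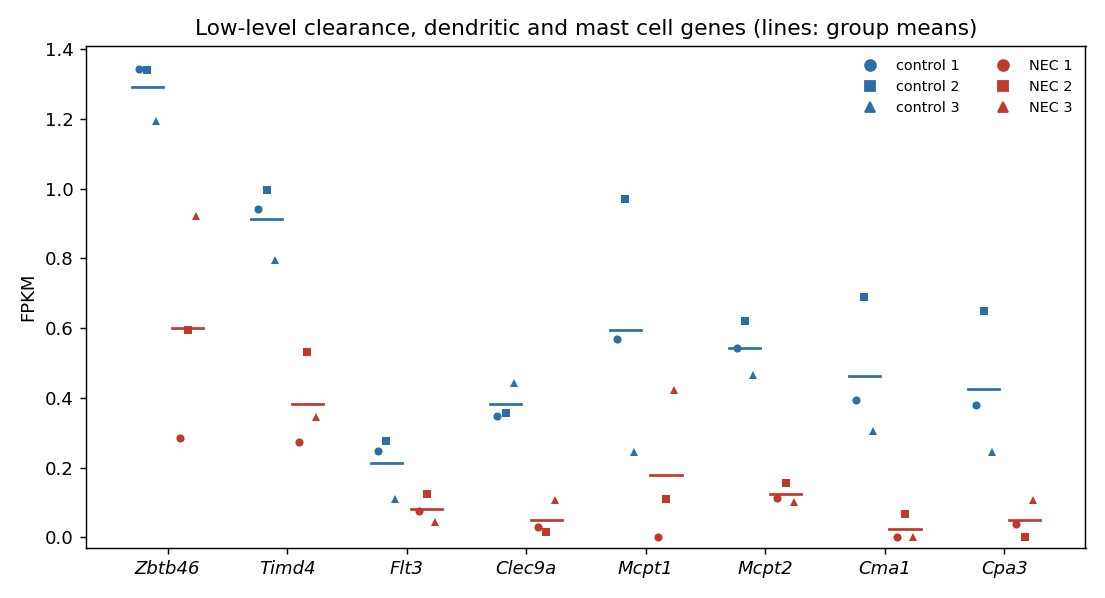
FPKM of 8 genes under the level of the test, each symbol a library (blue control, red NEC) and each line a group mean. The groups do not overlap for Zbtb46, Timd4, Clec9a, Mcpt2, Cma1 and Cpa3, and overlap for Flt3 and Mcpt1.

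Of the 19 genes without a test, 17 had a mean between 0.1 and 1 FPKM, Trem2 was lower still and Fcer1a was at 0. NEC lay wholly below control in 6 of the 17 and wholly above in none. That is 35.3%, where 41.7% of all 9476 genes of this level lay wholly below and 2.42% wholly above. Over all genes above 0 and under 1 FPKM these shares were 26.6% and 1.79%. With no filter on low values, limma called 9 of the list lower and none higher, the 4 named above with Timd4, Clec9a, Mcpt2, Cma1 and Cpa3. Of all 33583 genes above 0 in any library, 18.5% were then called, 15.3% lower and 3.17% higher, and 17777 of these genes averaged under 1 FPKM. The pseudocount of 1 shrinks changes at such levels, and NEC below control without overlap was common among weakly expressed genes.

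Other genes of the same cells were taken from lists of related genes, and their counts stand against the 30.6% of all tested genes called lower and the 7.69% called higher. Of 19 tested of 35 other macrophage and monocyte genes, 5 were lower, none higher and 14 did not pass, with a median of -0.37. Ctss, a lysosomal protease of antigen-presenting cells, was at 83.8, 81.5 and 85.6 FPKM in NEC and 149, 160 and 152 in control. Its log2 change was -0.87 (SE 0.09, limma adjusted p = 0.00293), and it passed under every alternative, at an adjusted p up to 0.0271. Ptprc was at 0.642 to 2.32 FPKM in the same libraries, and the cells that Ctss RNA came from were not tested. The nucleotide receptor gene P2ry6 fell by 0.78 and the chemokine gene Pf4 by 0.62. The lysosomal protease gene Lgmn, which many cell types express, fell by 0.64. The Pf4 and Lgmn calls were lost with TMM scaling, where 2 of the 19 were lower and 2 higher, and both were also lost without NEC 2. With TMM scaling 14.2% of all tested genes were lower and 16.7% higher. Without control 1 or control 2, Ctss was the only one of the 5 still called.

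Among other dendritic cell genes 5 of 18 were tested, of which 2 were lower, 1 higher and 2 did not pass, too few to set against those 2 shares. Wdfy4, needed for cross-presentation, was at 0.625, 1.26 and 0.576 FPKM in NEC and 2.54, 2.30 and 1.78 in control (log2 -0.83, SE 0.18, limma adjusted p = 0.0170). Its call was lost with quantile normalization and without control 1 or control 2, with an adjusted p of 0.0240 to 0.107 over all alternatives. Tcf4, a regulator of plasmacytoid dendritic cells that other tissues also use, fell by 0.74 (SE 0.10). Dpp4, a peptidase that enterocytes carry in large amounts, rose by 0.62 (SE 0.08), and Id2 had a log2 change of -1.60 that did not pass (adjusted p = 0.0639). Id2 was at 2.57, 3.00 and 10.8 FPKM in NEC and 7.60, 21.6 and 23.1 in control, and the cells its RNA came from were not tested. The chemokine receptor gene Xcr1, which marks the same dendritic cells as Clec9a, had 0, 2 and 0 fragments in NEC and 9, 14 and 7 in control.

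For other mast cell genes, 5 of 16 were tested, with 2 lower, 1 higher and 2 not passing, again too few to set against them. Kit, the stem cell factor receptor of mast cells and of gut pacemaker cells, was at 2.49, 2.44 and 3.06 FPKM in NEC and 7.07, 6.59 and 5.57 in control. It fell by 1.02 (SE 0.12, limma adjusted p = 0.00505) and passed under every alternative that tested it, at an adjusted p up to 0.0335, since a filter at 5 FPKM leaves it out. Its ligand gene Kitl fell by 0.43, a call lost with TMM scaling and without any 1 control. Il1rl1, the interleukin-33 receptor gene, rose instead, from 0.827, 0.814 and 0.636 FPKM in control to 2.99, 2.27 and 1.87 in NEC. Its log2 change was 0.93 (SE 0.15, limma adjusted p = 0.00880), and it passed under every alternative that tested it, at an adjusted p up to 0.0432, being under the filter at 5 FPKM as well. The cells that Il1rl1 RNA came from were not tested. Hpgds, a prostaglandin synthase, had a change of -0.33 (adjusted p = 0.0788).

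Markers of other cell types were counted in the same way, against 30.6% of all tested genes called lower. The summed level of 8 leukocyte common genes was 19.8 to 23.3 FPKM in NEC and 28.6 to 35.8 in control, with 2 of 7 tested lower (Coro1a and Arhgdib). B and plasma cell markers summed to 4.09 to 8.03 and 9.38 to 15.4 FPKM, with 2 of 3 tested lower (Ighm and Ebf1). Fibroblast and muscle markers summed to 186 to 737 and 952 to 1116 FPKM, with 4 of 8 lower, Pdgfrb and Col1a2 with the smallest p. Glia and neuron markers summed to 8.66 to 14.7 and 23.1 to 29.7 FPKM, with all 3 tested lower, Uchl1 among them. Endothelium markers overlapped between the groups, at 51.2 to 61.6 and 57.3 to 62.9 FPKM, with 3 of 6 lower (Pecam1 and Cdh5 with the smallest p) and 1 higher (Plvap). No marker of these 5 lists was at 0 in every library. Of the marker genes named here, Coro1a, Uchl1 and Vil1 were called whichever library was left out, and the others lost the call at least without control 2.

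T and NK cell markers summed to 2.22 to 4.28 FPKM in NEC and 3.92 to 6.23 in control, and Trac, the single one tested, did not pass. Of the neutrophil markers 5 of 11 were tested and none passed, and of the eosinophil and basophil markers the eosinophil peroxidase gene Epx was listed at 0 in every library. The part of a changed tissue makeup in the levels of the 36 genes was not tested.

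**Figure D4:**
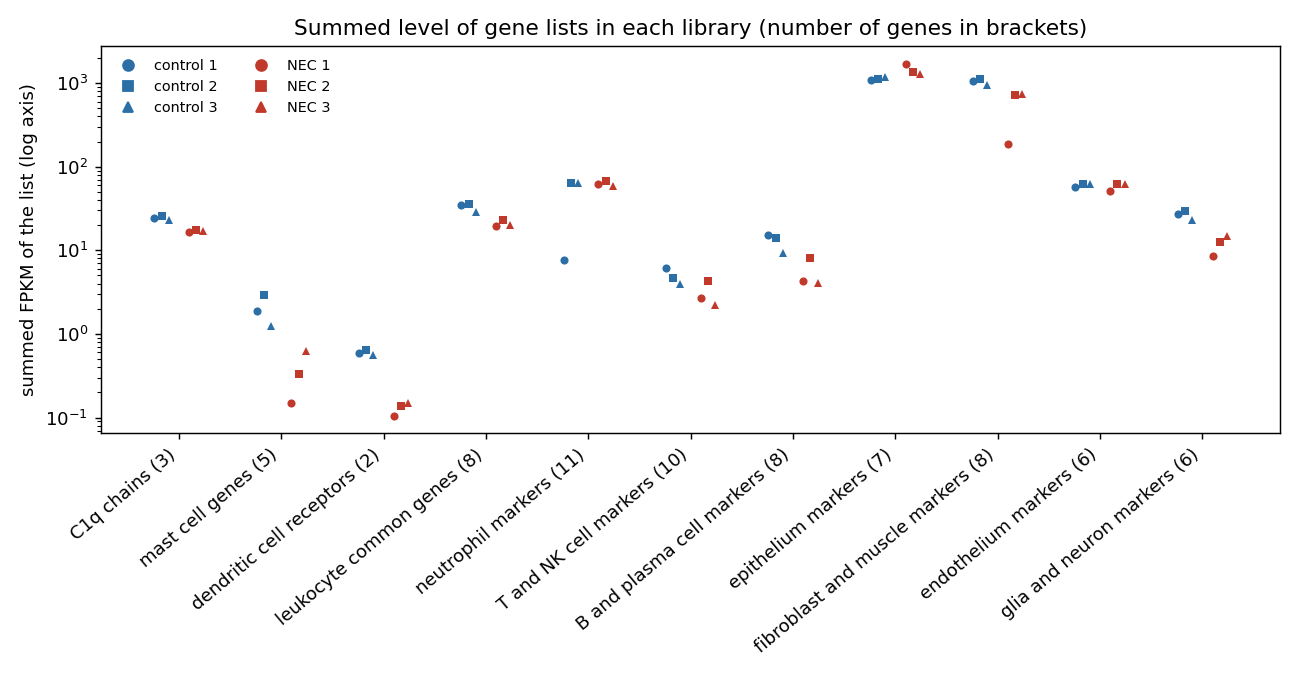
Summed FPKM of gene lists in each library on a log axis, blue for control and red for NEC, with the number of genes in brackets. C1q, mast cell, dendritic receptor, leukocyte common, B and plasma cell, fibroblast and muscle, and glia and neuron lists lie lower in all NEC libraries. Epithelium markers lie higher, T and NK cell and endothelium markers overlap, and neutrophil markers stand low in control 1 alone.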

How the data were processed

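The deposited table holds 1 value per gene and library, read as FPKM made by the authors: its header names no unit, but Cuffdiff, listed in the submitters' processing notes with HISAT2, SAMtools 1.3.1 and build mm10, gives FPKM. Low values of single-transcript genes were whole multiples of 1 fragment, within 0.01 for 98.5% to 98.7% of values under 100 fragments per library, which gave the estimated depth. Annotation and strand setting are not given in the sources used here. Per the labels' protocols, libraries were paired-end TruSeq from total RNA with an integrity number above 7. Columns beginning with N were read as NEC libraries of the same number.

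Symbols, coordinates and biotypes came from GENCODE mouse release M21, which matched 55141 identifiers. NEC was compared with control on log2(FPKM + 1) by limma 3.58.1 (R 4.3.3, trended variance). Genes entered if they averaged 1 FPKM or more across the 6 libraries, group was the single term, and p-values were adjusted by Benjamini-Hochberg. This scale understates the change of low genes. An exact permutation test of 3 libraries against 3 cannot go below p = 0.1, so none was run. The test was tested on simulated data. The members and lists were chosen with earlier results of these data known. All members are named, with up to 4 genes of each related list and up to 2 of each marker list by smallest p, and Lgmn, Xcr1, Plvap, Epx, S100a8 and Camp were added after their values were seen. Some genes that this rule names are not reported here. As alternatives, the pseudocount was set to 0.1 and 0.01, the filter was dropped or raised to 5 FPKM, and values were scaled by TMM factors (trimming 30% of log ratios and 5% of levels) or quantile normalized. The replicate number was added as a block, and each library was left out in turn. Promoters came from RefSeq on GRCm38.p6. Python 3.11.15 and matplotlib 3.10.9 made the figures.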

Additional observations from a re-analysis of the deposited data

How the results depend on the processing

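Of the 17 tested genes, each kept its direction and its side of the threshold with pseudocounts of 0.1 and 0.01, with no filter and with the replicate number as a block, and so did the 8 left when the filter was raised to 5 FPKM. The replicate block left 4 of the 17 lower and none higher, and 3230 lower and 856 higher over all genes. The labels do not say that the numbers pair the libraries, and deviations of same-numbered libraries correlated across genes at -0.05, -0.01 and -0.07.

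Among all genes, 5139 were lower and 1064 higher with no filter. Lower calls numbered 1746 with the filter at 5 FPKM, 2252 with TMM scaling and 2387 with quantile normalization, and 2638 and 2202 genes were higher under these scalings. Leaving out 1 library gave 917 to 5378 lower and 471 to 1566 higher. Genes of the list called lower numbered 9 with no filter, 2 with the filter at 5 FPKM, 1 with TMM scaling and 0 with quantile normalization, and 0 to 7 without 1 library. TMM scaling called 3 of them higher, and leaving out 1 library 0 to 1. Related and marker lists held 23 genes lower and 5 higher on the deposited scale, where 30.6% of all tested genes were lower and 7.69% higher. Tested genes are counted above for each of these lists except the eosinophil and basophil markers, of which 1 was tested. The lists held 12 lower with the filter at 5 FPKM, where 1746 of all genes were lower. They held 14 lower with TMM scaling, and 8 higher with TMM scaling and 8 with quantile normalization. Over all genes 14.2% were lower and 16.7% higher with TMM scaling, and 13.9% were higher with quantile normalization. Without 1 library the lists held 5 to 28 lower and 3 to 6 higher, where 917 to 5378 and 471 to 1566 of all genes were called. The lists were not tested as sets.

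The median change of the tested genes of the list was -0.39 with a pseudocount of 0.01, -0.12 with the filter at 5 FPKM, -0.030 with TMM scaling and -0.0043 with quantile normalization. It ran from -0.39 to -0.21 without 1 library. With TMM scaling Fcgr3, Fcer1g and Tyrobp turned to 0.10, 0.20 and 0.072. With quantile normalization Fcgr3, Fcer1g, Tyrobp and C1qc turned to 0.27, 0.31, 0.11 and 0.073. Leaving out 1 library moved Lyz2 between -0.22 and 0.32 and Fcer1g between -0.14 and 0.037. The cause of these turns was not tested. At under 1 FPKM few fragments stand behind a value, and counting error limits what can be read from it.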

Other observations

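A few related genes outside the list lay higher in NEC, and they were chosen after their values were seen. Of the 35 other macrophage and monocyte genes, NEC lay wholly below control in 13 and wholly above in 3. Over all tested genes these shares were 47.3% and 11.8%, and over genes of 0.1 to 1 FPKM 41.7% and 2.42%. Itgam, the integrin chain of monocytes, macrophages and neutrophils, was at 1.39, 1.47 and 1.25 FPKM in NEC and 0.941, 0.611 and 0.942 in control. Its log2 change of 0.38 did not pass on the deposited scale (SE 0.13, limma adjusted p = 0.0533). It was 0.56 and passed with TMM scaling (adjusted p = 0.0229) and 0.71 with quantile normalization (0.0137), and its adjusted p ranged from 0.0137 to 0.179 over all alternatives. Msr1, a macrophage scavenger receptor, was at 1.42, 1.04 and 0.835 FPKM in NEC and 0.656, 0.550 and 0.668 in control, without overlap and under the level of the test.

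Vsig4, a complement receptor of resident macrophages, was at 0.0662, 0.0309 and 0.0601 FPKM in NEC and listed at 0 in the controls. With no filter on low values Vsig4 did not pass (limma adjusted p = 0.0900). Of all genes above 0 and under 1 FPKM, 1.79% lay wholly above control. Since Vsig4 was picked for lying above, that share does not measure how unusual it is. Cx3cr1, the fractalkine receptor of gut macrophages, was at 0.0611, 0.555 and 0.720 FPKM in NEC and 1.58, 1.502 and 1.34 in control, without overlap. Il34, the other ligand of the receptor encoded by Csf1r, was at 2.71 FPKM in NEC 1 and at 0.696 to 1.13 in the other 5 libraries.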
